A study of Homo sapiens with 6 samples.

Results

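The 10 genes of the inflammasome described here were the sensors NLRP1, NLRP3, NLRC4 and AIM2, the adaptor PYCARD, the inflammatory caspases CASP1, CASP4 and CASP5, the pore-forming gasdermin GSDMD and the NLRP3 partner NEK7. They were taken by gene symbol from the 63241 genes of the deposited table, where each had 1 row. RNA sequencing compared macrophages derived from THP-1, an established human monocytic leukaemia line, harvested at 24 h, that had received a negative control siRNA (siNC, labelled wild type) or an siRNA to DUSP6 (siDUSP6, labelled as DUSP6 knockdown). There were 3 libraries in each group, and the series title places the work in a study of macrophage polarization through DUSP6 and ERK in adenomyosis. The agent that turned the THP-1 cells into macrophages is not given in the sources used here, and all 6 libraries come from this 1 cell line. Values are TPM (library-wide shares of transcripts), which are scaled by transcript length and keep no sequencing depth, so depth is unknown.

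An inflammasome is a cytosolic complex in which a sensor that has met its ligand gathers the adaptor ASC, encoded by PYCARD, and through it activates caspase-1. Caspase-1 matures IL-1β and IL-18 and cuts gasdermin D, whose freed end forms pores in the plasma membrane. Caspase-4 and caspase-5 bind bacterial lipopolysaccharide themselves and cut gasdermin D without a sensor. In macrophages the supply of sensor and precursor mRNA is set in an earlier step, called priming, and assembly is a later step that mRNA levels do not show.

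The silenced gene and the markers of the cells were checked first. DUSP6, a phosphatase of ERK, stood at 359, 368 and 378 TPM in the siNC libraries and at 227, 218 and 222 TPM in the siDUSP6 libraries (limma adjusted p = 8.667e-05, log2 fold change -0.73). In siDUSP6 replicates 2 and 3 the treatment field gives siRNAs to other DUSP genes, whereas their title, library name and genotype name DUSP6, so values with replicate 1 as the only knockdown library are given for DUSP6, for each tested member and for the list genes as a count. In that fit the siNC libraries alone supply the spread, and the lone siDUSP6 library is assumed to vary as they do. It gave a log2 fold change of -0.70 for DUSP6. Of 10 macrophage markers all were measured, with a summed level of 4048 to 4148 TPM in siNC and 3964 to 4045 TPM in siDUSP6. CD14, the lipopolysaccharide co-receptor, was the 1 marker that rose, from 29.9 ± 3.26 to 40.8 ± 1.18 TPM (SD, n = 3 each), and 0 fell. The other markers lay mostly lower in siDUSP6, since 2 of the 10 had a positive log2 fold change and the median was -0.0445. Separate groups were seen for 6 of the 10 markers, CD14 among them, beside 25.1% of all tested genes. CSF1R, ITGAM, LYZ, TYROBP and CD33, named after their values were seen, were lower with separate groups but missed the threshold. CD33, a myeloid surface receptor, had the smallest p of these, at 39.8 ± 1.9 TPM in siNC and 33.6 ± 2.36 TPM in siDUSP6 (limma adjusted p = 0.09681). For CSF1R the groups barely parted, with the lowest siNC library at 293.86 TPM and the highest siDUSP6 library at 293.83 TPM. The part of these marker levels in the changes of the members was not tested. Among 14 markers of other cell types, summed at 137 to 152 TPM in siNC and 131 to 137 TPM in siDUSP6, CD3D, MS4A1 and EPCAM were listed at 0 in every library. PECAM1, which myeloid cells also express, held most of that sum, with 121 to 141 TPM per library. NKG7 had the smallest p of these markers and PECAM1 the next, and both missed the threshold (limma adjusted p = 0.2289 and 0.3289). In bulk RNA a change in the number of cells that make a transcript and a change in transcript per cell cannot be told apart. Separate cultures are not stated in the labels, so p-values measure how far these samples scatter, and that scatter may be technical.

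AIM2, NLRP3 and CASP1 were higher after DUSP6 silencing, by 1.37-fold, 1.21-fold and 1.18-fold in mean TPM. CASP4 stood 1.12-fold higher with separate groups but missed the threshold, while PYCARD, GSDMD, NEK7 and NLRC4 did not pass the test. NLRP1 and CASP5 were below the level needed for a test, a mean of 1 TPM. Of the 8 genes tested 3 rose and 0 fell, where 2.37% of the 14602 genes tested with limma rose, 1.49% fell and 3.86% did either. The median log2 fold change of the 8 was 0.17, beside -0.0254 over all tested genes. In 5 of the 8 the groups did not overlap, all of them with siDUSP6 above siNC; this held for 10.2% of all tested genes in that direction and for 25.1% in either.

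**Figure D1:**
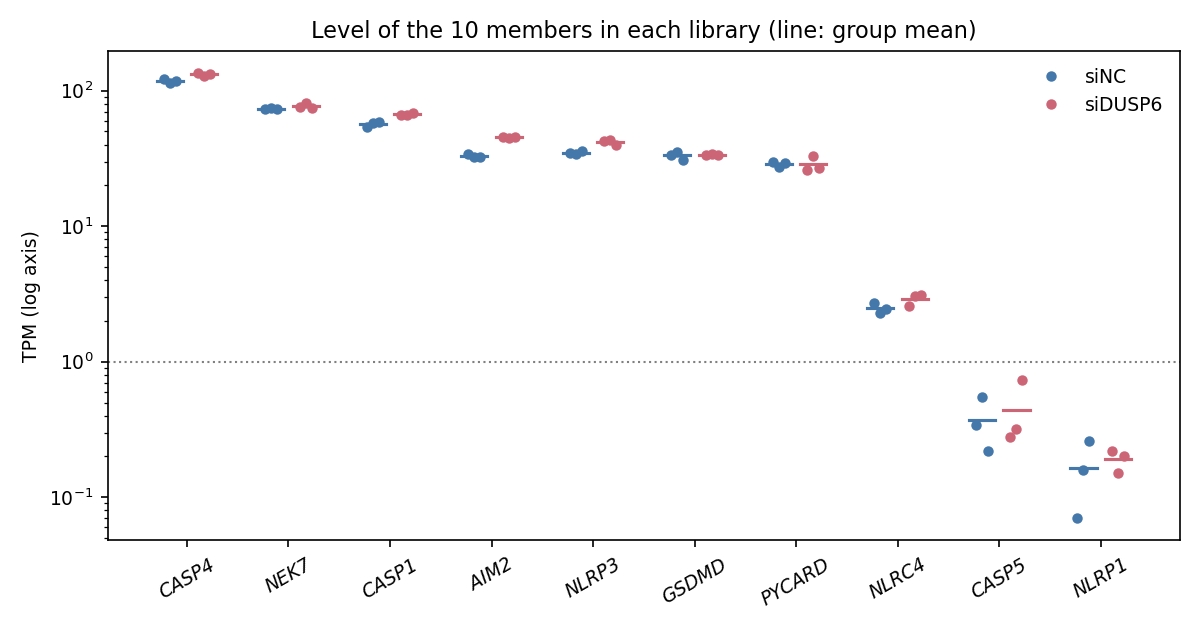
TPM (log axis) of each of the 10 genes in the 3 siNC (blue) and 3 siDUSP6 (red) libraries; points are libraries, short lines are group means and the dotted line is the filter of 1 TPM. CASP4 is highest, CASP5 and NLRP1 lie under the filter, and AIM2, NLRP3, CASP1, CASP4 and NEK7 show separate groups.

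**Figure D2:**
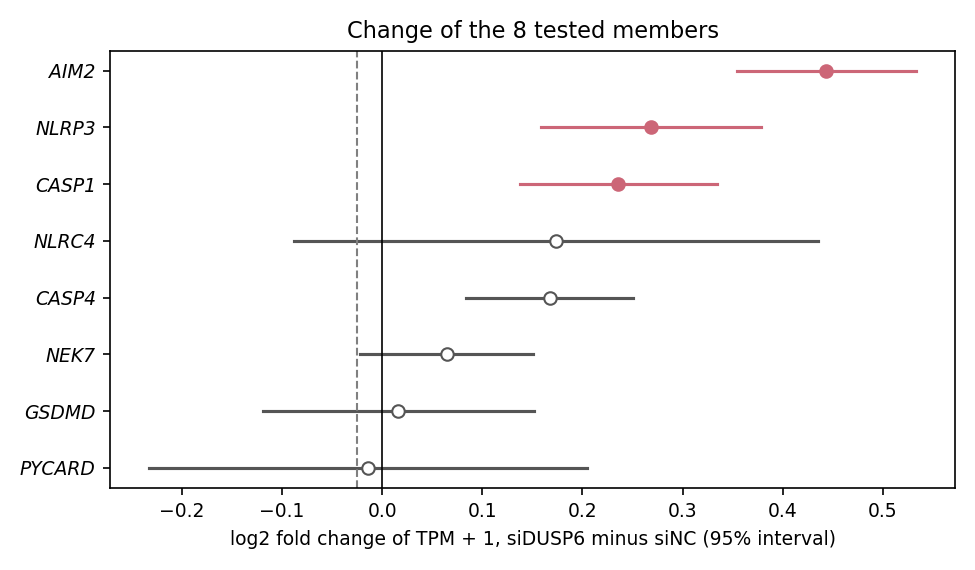
Log2 fold change of TPM + 1, siDUSP6 minus siNC, with its 95% limma interval for the 8 tested genes; filled points passed an adjusted p of 0.05, open points did not, and the dashed line is the median of all tested genes. AIM2, at 0.44, lies highest, and the intervals of PYCARD, GSDMD, NEK7 and NLRC4 lie on both sides of 0.

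The order of levels put CASP4 first, followed by NEK7, CASP1, then AIM2, NLRP3, GSDMD and PYCARD close together, then NLRC4, CASP5 and NLRP1. In siNC the neighbours AIM2 and NLRP3, NLRP3 and GSDMD, and CASP5 and NLRP1 overlapped between libraries. In siDUSP6 no neighbours in that order overlapped. The spread between siNC libraries was small for the 7 genes above 20 TPM, with coefficients of variation from 0.681% for NEK7 to 7.32% for GSDMD. In siDUSP6 they ran from 0.792% for GSDMD to 13.5% for PYCARD.

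Among the sensors, AIM2, which binds double-stranded DNA in the cytosol, changed most. It stood at 34.1, 32.3 and 32.4 TPM in siNC and at 45.4, 44.4 and 45.7 TPM in siDUSP6. All siDUSP6 libraries lay above all siNC libraries, and within each group the libraries were close together. The log2 fold change was 0.44 (95% interval 0.35 to 0.53, SE 0.0377, limma adjusted p = 0.001967). The call was kept in each of the 6 fits on 5 libraries (adjusted p 0.009961 to 0.01636). With siDUSP6 replicate 1 as the only knockdown library, the 1 whose treatment field names DUSP6, the log2 fold change was 0.45 and the adjusted p 0.1408. Adjusted p over all alternatives ran from 0.0012 to 0.1408.

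NLRP3, the sensor that answers potassium loss and many forms of membrane damage, stood at 34.8, 33.8 and 35.6 TPM in siNC and at 42.9, 43.6 and 39.8 TPM in siDUSP6. All siDUSP6 libraries lay above all siNC libraries, with replicate 3 the lowest of them. The log2 fold change was 0.27 (95% interval 0.16 to 0.38, SE 0.046, limma adjusted p = 0.02866). The call was lost in 5 of the 6 fits with 1 library left out and kept only without siDUSP6 replicate 3, with log2 fold changes of 0.24 to 0.31 and adjusted p of 0.0353 to 0.1055. With siDUSP6 replicate 1 alone the log2 fold change was 0.30 (adjusted p = 0.2131). The call also ended with no filter and without the variance trend (adjusted p = 0.05882 and 0.08683), and over all alternatives the adjusted p lay between 0.01765 and 0.2131.

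NLRC4, which acts with NAIP proteins on bacterial flagellin and secretion needles, was low, at 2.69, 2.29 and 2.44 TPM in siNC and 2.59, 3.05 and 3.12 TPM in siDUSP6. The groups overlapped, and the log2 fold change of 0.17 had a 95% interval from -0.0883 to 0.44 (limma adjusted p = 0.4543). It was 0.0493 with siDUSP6 replicate 1 alone. NLRP1, a sensor that is cleaved by proteases and is known from keratinocytes, lay between 0.07 and 0.26 TPM in all 6 libraries and was not tested.

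**Figure D3:**
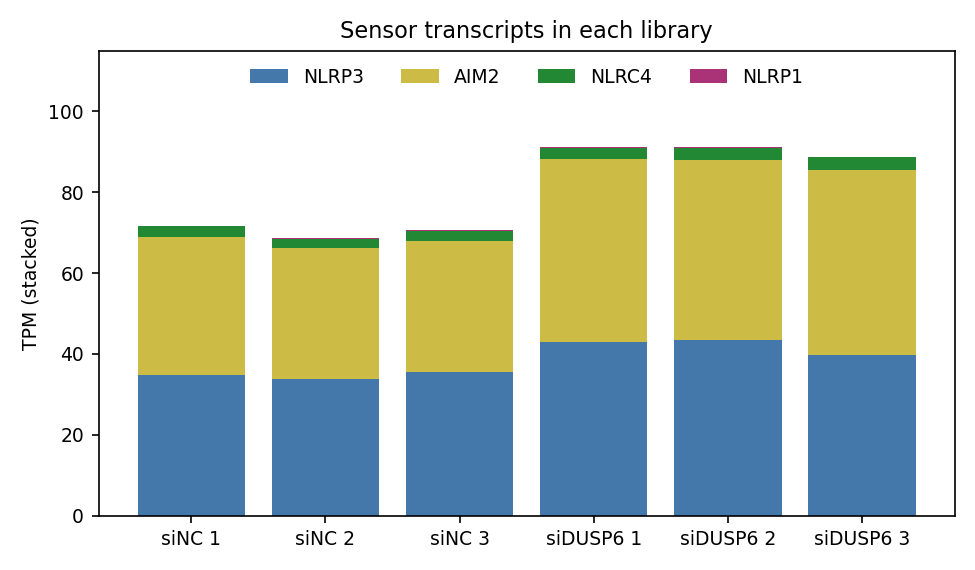
Stacked TPM of the 4 sensors in each library. The total is 68.6 to 71.7 TPM in siNC and 88.8 to 91.2 TPM in siDUSP6, and nearly all of it is NLRP3 and AIM2.

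NLRP3 and AIM2 made up nearly all sensor transcript. Their summed level with NLRC4 and NLRP1 was 68.6 to 71.7 TPM in siNC and 88.8 to 91.2 TPM in siDUSP6. NLRP3 held 48.6%, 49.3% and 50.4% of it in the siNC libraries, and AIM2 47.6%, 47.1% and 45.8%. In the siDUSP6 libraries the order turned, with 47.0%, 47.8% and 44.9% for NLRP3 and 49.9%, 48.7% and 51.4% for AIM2. The ratio of AIM2 to NLRP3 ran from 0.91 to 0.98 in siNC and from 1.02 to 1.15 in siDUSP6, a log2 difference of 0.18. An exact two-sided permutation test of this ratio gave p = 0.1, the smallest p that 3 against 3 libraries allow.

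The start regions of both rising sensors are shown because AIM2 is known as an interferon-induced gene and NLRP3 as a gene primed through NF-kB. The sequences are RefSeq windows of GRCh38.p14, from 250 bases before to 50 bases after an annotated start, and 6 of the 10 genes had such a window. The AIM2 window is on the minus strand at chr1:159076717-159077016, and the NLRP3 window on the plus strand at chr1:247415923-247416222. Capitals mark matches to 4 motifs, searched on both strands: GAAANNGAA (the interferon-stimulated response element, ISRE), TTCNNNGAA (the interferon-gamma-activated site, GAS), GGNNTTTCC (NF-kB) and TGANTCA (AP-1).
AIM2: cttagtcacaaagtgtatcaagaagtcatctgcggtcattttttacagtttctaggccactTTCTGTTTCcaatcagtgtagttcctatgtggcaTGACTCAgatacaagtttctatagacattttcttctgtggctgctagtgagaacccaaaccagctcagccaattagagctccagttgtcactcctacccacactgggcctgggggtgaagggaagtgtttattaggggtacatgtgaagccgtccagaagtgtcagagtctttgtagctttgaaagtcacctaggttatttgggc
NLRP3: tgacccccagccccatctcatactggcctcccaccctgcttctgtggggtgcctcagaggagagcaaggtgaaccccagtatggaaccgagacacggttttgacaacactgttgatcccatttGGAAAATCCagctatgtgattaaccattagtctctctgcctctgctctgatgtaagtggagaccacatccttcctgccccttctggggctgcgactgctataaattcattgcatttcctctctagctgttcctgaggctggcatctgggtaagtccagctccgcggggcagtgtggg

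Positions are counted from the start site, whose base is 1. The AIM2 window held an ISRE match, TTCTGTTTC, at -189 to -181 and an AP-1 match, TGACTCA, at -155 to -149. The NLRP3 window held an NF-kB match, GGAAAATCC, at -127 to -119. No capitals of different motifs overlap in these windows. Among 35116 windows of all genes, 8.11% held the ISRE letters, 7.66% the GAS letters, 6.26% the NF-kB letters and 7.71% the AP-1 letters. The CASP5 window held ISRE and GAS matches and 1 of the 3 NLRC4 windows an ISRE match, while CASP5 was too low to test and NLRC4 was not called. The windows of CASP4 and PYCARD held none of these letters. Such matches are a description of the letters, and other start sites of these genes were not searched.

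PYCARD encodes ASC, the adaptor shared by AIM2 and NLRP3. It stood at 29.7, 27.5 and 29.4 TPM in siNC and at 26.0, 33.1 and 27.0 TPM in siDUSP6, where replicate 2 was the highest and replicate 1 the lowest of all libraries. The log2 fold change was -0.0140 (95% interval -0.233 to 0.20, limma adjusted p = 0.9561), and its sign turned to positive after median-of-ratios scaling (0.00845), after quantile normalization (0.00933) and in 3 of the fits with 1 library left out. The value was -0.145 with siDUSP6 replicate 1 alone. The antisense gene PYCARD-AS1 shares 59.7% of the annotated exonic bases of PYCARD and was listed at 0 to 1.22 TPM. The kit keeps strand, but whether counting used it is not given in the sources used here. NEK7, a kinase that bridges NLRP3 subunits, stood at 72.9, 73.9 and 73.5 TPM in siNC and 75.8, 80.5 and 74.4 TPM in siDUSP6. The groups did not overlap, yet the log2 fold change of 0.06 (95% interval -0.0219 to 0.15) missed the threshold (limma adjusted p = 0.3976). It was 0.0439 with siDUSP6 replicate 1 alone.

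CASP1 encodes the caspase that matures IL-1β and IL-18. It stood at 53.7, 57.7 and 58.6 TPM in siNC and at 65.9, 66.4 and 68.3 TPM in siDUSP6, with no overlap. The log2 fold change was 0.24 (95% interval 0.14 to 0.33, SE 0.0413, limma adjusted p = 0.03132). The call was lost in each of the 6 fits with 1 library left out, with log2 fold changes from 0.20 to 0.26 and adjusted p from 0.0613 to 0.1042. With siDUSP6 replicate 1 alone the log2 fold change was 0.21 and the adjusted p 0.3242. It also ended with no filter and without the variance trend (adjusted p = 0.0647 and 0.1012), within a range of 0.02054 to 0.3242 over all alternatives. The value is uncertain for a further reason, since 7.66% of the distinct 31-base words of annotated CASP1 transcripts also occur in CARD16, its neighbour and partial copy.

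CASP4, the lipopolysaccharide-binding caspase, was the most abundant of the 10 genes, at 121, 113 and 119 TPM in siNC and 135, 128 and 133 TPM in siDUSP6. Each siDUSP6 library lay above each siNC library. The log2 fold change was 0.17 (95% interval 0.08 to 0.25, SE 0.0351), just outside the threshold at a limma adjusted p of 0.05559. It passed when the filter was raised to 5 TPM and after median-of-ratios scaling (adjusted p = 0.03934 and 0.03855), within a range of 0.03855 to 0.2817 over all alternatives. With siDUSP6 replicate 1 alone the log2 fold change was 0.20. CASP5, its close relative, was listed at 0.22 to 0.55 TPM in siNC and 0.28 to 0.73 TPM in siDUSP6 and was not tested. CASP4 was 1.96 to 2.25 times as abundant as CASP1 in siNC and 1.93 to 2.05 times in siDUSP6 (exact two-sided permutation p = 0.4).

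The inflammatory caspases lie next to each other on the minus strand of chromosome 11 in GRCh38, with coordinates from GENCODE release 29. CASP4 runs from 104942866 to 104969436, CASP5 from 104994235 to 105023168 and CASP1 from 105025443 to 105035250. CARD16, a CARD-only protein that binds caspase-1, follows from 105041326 to 105101431. CARD16 went from 91.4 ± 4.74 to 104 ± 4.85 TPM (limma adjusted p = 0.09992), with separate groups. The ratio of CARD16 to CASP1 was 1.58 to 1.65 in siNC and 1.503 to 1.64 in siDUSP6 (exact two-sided permutation p = 0.3). CARD16 shares 31-base words with CASP1, so the levels of these genes and their ratio may draw on the same reads. The shared part of the CARD16 words was not computed. CASP12 and CARD18, at the ends of this cluster, were listed at 0 in every library. Within the cluster CASP4, CASP1 and CARD16 thus each stood higher in all 3 siDUSP6 libraries than in any siNC library. Such a separation was seen for 10.2% of all tested genes, and CASP4 and CARD16 were not called. CASP5, which lies among them, stayed under 1 TPM.

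AIM2 occupies bases 159062484 to 159147096 of chromosome 1, minus strand, beside other genes of the PYHIN family of DNA-binding proteins. IFI16, the nearest of these and a DNA sensor of the nucleus and cytosol, lies on the plus strand from 158999968 to 159055155. It was at 230.4, 230.7 and 228 TPM in siNC and 283, 289 and 276 TPM in siDUSP6. IFI16 rose by 0.30 on the log2 scale (SE 0.0234, limma adjusted p = 0.001567), with all siDUSP6 libraries above all siNC libraries. MNDA, farther along, was at 4.49 to 6.54 TPM in siNC and 4.73 to 5.25 TPM in siDUSP6 (limma adjusted p = 0.9118), and PYHIN1 stayed under 1 TPM. NLRP3 and NEK7 lie elsewhere on chromosome 1, both on the plus strand, from 247416156 to 247449108 and from 198156963 to 198322420.

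GSDMD, the gasdermin that caspase-1 and caspase-4 cut, was nearly the same in both groups, at 33.7, 35.5 and 30.7 TPM in siNC and 33.5, 33.9 and 33.5 TPM in siDUSP6. The siDUSP6 libraries lay within the range of the siNC libraries. The log2 fold change was 0.02 (95% interval -0.119 to 0.15, limma adjusted p = 0.9154), and 0.00876 with siDUSP6 replicate 1 alone.

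Of the substrates and outputs, IL1B and IL18 moved in opposite directions. IL1B, the precursor of IL-1β, stood at 4288, 4204 and 4208 TPM in siNC and at 5184, 5221 and 5136 TPM in siDUSP6 (log2 fold change 0.29, SE 0.0122, limma adjusted p = 0.000123). IL18 stood at 22.8, 22.8 and 23.9 TPM in siNC and at 18.7, 16.3 and 17.9 TPM in siDUSP6 (log2 fold change -0.38, SE 0.0598, limma adjusted p = 0.02226). Neither gene's groups overlapped. Of 12 listed outputs 11 were tested, 3 rose and 2 fell, where 2.37% of all tested genes rose and 1.49% fell. The median log2 fold change was 0.11, beside -0.0254 over all tested genes. NINJ1, which ruptures the plasma membrane after gasdermin pores form, rose from 60.6 ± 1.76 to 75.5 ± 4.59 TPM (limma adjusted p = 0.02357). CHMP3, a part of the ESCRT-III machinery that repairs such pores, rose from 68.6 ± 2.79 to 81.3 ± 2.64 TPM (limma adjusted p = 0.02788). HMGB1, a nuclear protein released from dying cells, fell from 349 ± 3.82 to 320 ± 3.23 TPM (limma adjusted p = 0.01741). GSDME, the gasdermin cut by caspase-3, was at 10.02 to 11.2 TPM in siNC and 10.03 to 11.6 TPM in siDUSP6, short of the threshold (limma adjusted p = 0.8753).

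Genes that act on the NLRP3 inflammasome from upstream went both ways. Of 22 listed 21 were tested, 2 rose and 1 fell, beside 3.86% called over all tested genes, and the median log2 fold change was -0.0256. Separate groups were seen for 11 of the 21, beside 25.1% of all tested genes. PANX1, a channel that releases ATP, rose from 40.0 ± 0.712 to 47.9 ± 2.14 TPM (limma adjusted p = 0.0269). CLIC1, a chloride channel protein, rose from 1028 ± 11.5 to 1093 ± 13.6 TPM (limma adjusted p = 0.03521). BRCC3, a deubiquitinase known to act on NLRP3, fell from 21.6 ± 0.369 to 17.8 ± 0.845 TPM (limma adjusted p = 0.03816). Its call ended after median-of-ratios scaling and after quantile normalization (limma adjusted p = 0.05412 and 0.05787).

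Of 13 listed inhibitors 5 were tested and 0 passed limma's test. Beside 2808 of all 14602 tested genes, 1 of these 5 had an unadjusted p under 0.05. CARD16 had the smallest p, and MARCHF7, a ubiquitin ligase, the next (limma adjusted p = 0.3561). The pyrin-only PYDC1 and PYDC2 were listed at 0 in every library. Of 13 other sensors 5 were tested and IFI16 was the 1 that rose, beside 3.86% called over all tested genes. Separate groups were seen for 2 of the 5 tested genes in each of these lists, beside 25.1% of all tested genes. MEFV, which encodes pyrin, was at 4.24 to 4.28 TPM in siNC and 4.38 to 5.06 TPM in siDUSP6 (limma adjusted p = 0.4156). CASP8, an initiator caspase of apoptosis, stood at 40.3 to 45.8 TPM in siNC and 41.9 to 43.9 TPM in siDUSP6 (limma adjusted p = 0.9863).

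The guanylate-binding proteins, interferon-induced GTPases that coat bacterial lipopolysaccharide for caspase-4, were listed with 3 IRF factors. Of 9 genes 8 were tested and 2 rose, GBP1 and GBP5, where 2.37% of all tested genes rose. The median log2 fold change was 0.40. It includes IRF1, whose value of 0.82 rests mostly on siDUSP6 replicate 2. GBP1 went from 51.2 ± 2.91 to 71.8 ± 1.26 TPM (limma adjusted p = 0.003368). GBP5 went from 6.74 ± 0.233 to 10.1 ± 0.811 TPM (limma adjusted p = 0.01582). GBP2 and GBP4 stood higher with separate groups and missed the threshold (limma adjusted p = 0.05563 and 0.07463). The groups of GBP3 overlapped, at 36.0 to 44.9 TPM in siNC and 42.4 to 46.5 TPM in siDUSP6 (limma adjusted p = 0.4377). Separate groups were seen for 5 of the 8 tested genes of this list, IRF8 among them with siDUSP6 lower, beside 25.1% of all tested genes.

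**Figure D4:**
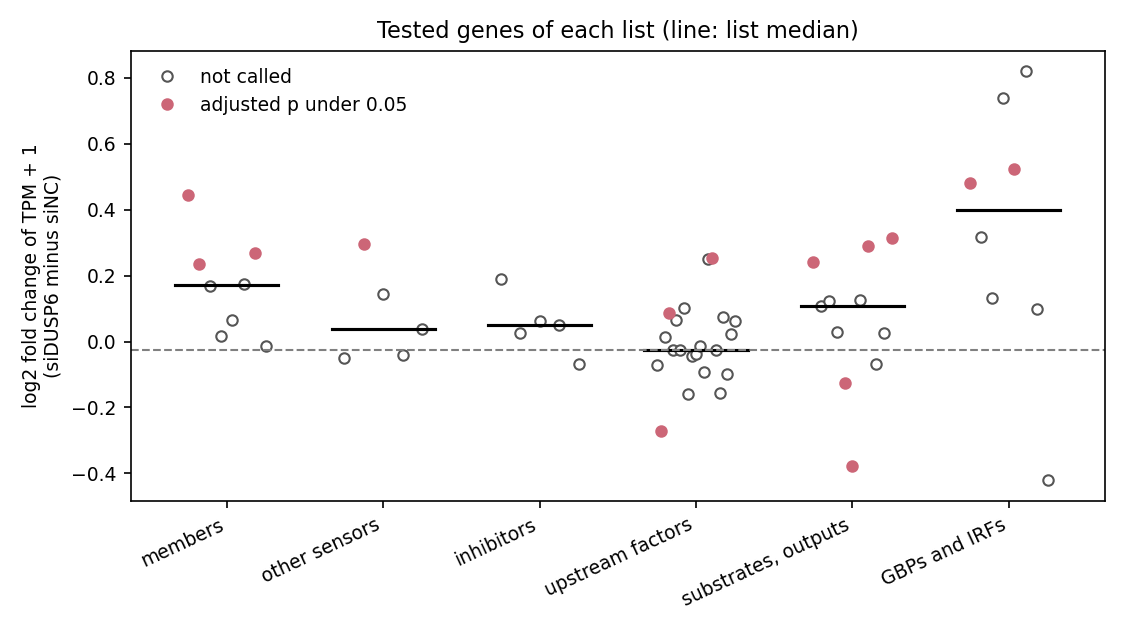
Log2 fold change of TPM + 1, siDUSP6 minus siNC, of the tested genes in each list; filled points passed an adjusted p of 0.05, black lines are list medians and the dashed line is the median of all tested genes. The list of guanylate-binding proteins and IRF factors has the highest median, 0.40, and the upstream factors, at -0.0256, lie next to all genes. That highest median includes IRF1, whose value rests mostly on siDUSP6 replicate 2.

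Of the genes named as called in these lists, IFI16, IL1B and GBP1 kept their call in all 6 fits with 1 library left out. PANX1, IL18, NINJ1, HMGB1 and CHMP3, and the marker CD14, lost it in 5 of these fits, and CLIC1, BRCC3 and GBP5 in 6. The groups of each of these genes did not overlap. With siDUSP6 replicate 1 as the only knockdown library, where that arm has no spread of its own, their direction therefore could not change. IL1B was the 1 with an adjusted p under 0.05 there (limma adjusted p = 0.02485, within 7.604e-06 to 0.03797 over all alternatives). The number of genes called over the whole table was also smaller in these fits, 222 to 266 with 1 library left out and 49 with siDUSP6 replicate 1 alone, against 564 with all libraries.

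**Figure D5:**
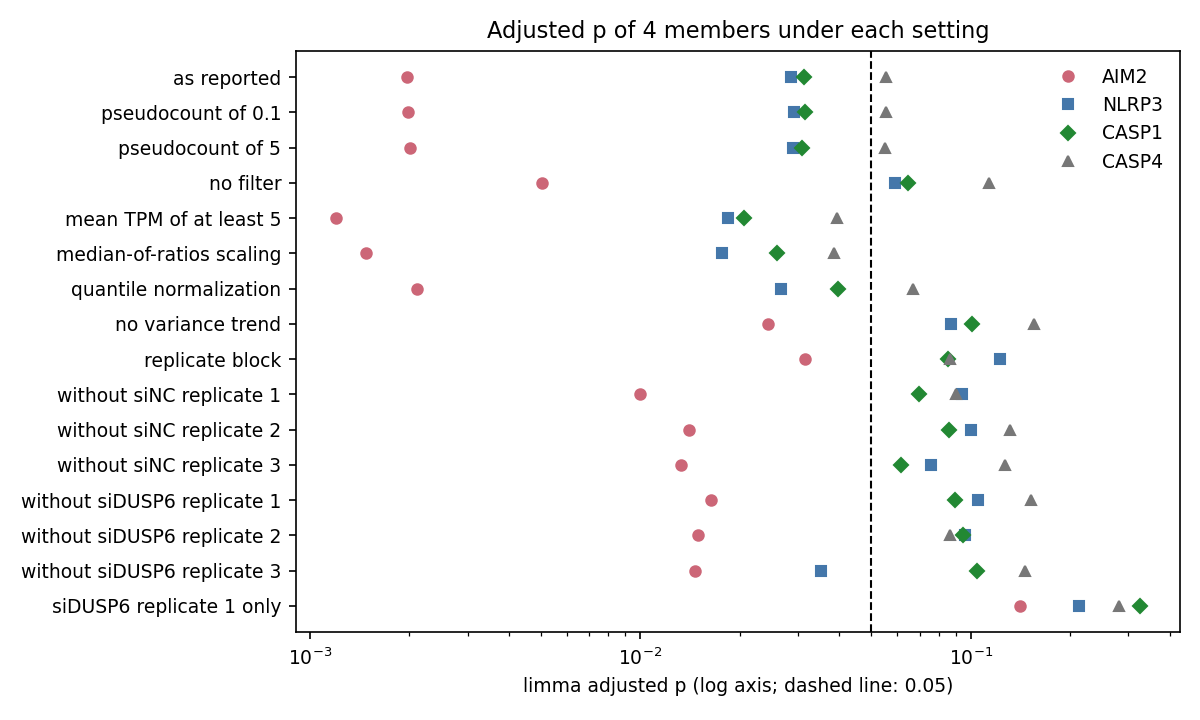
Limma adjusted p (log axis) of AIM2, NLRP3, CASP1 and CASP4 under the reported fit and each alternative; the dashed line marks 0.05. AIM2 crosses it in 1 setting, siDUSP6 replicate 1 alone, while NLRP3 and CASP1 cross it in 9 and 10 and CASP4 drops under it in 2.

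Genes whose levels followed the called members most closely were sought among 9847 genes that have a symbol and average 5 TPM or more, by Pearson r of log2(TPM + 1) over the 6 libraries. The 6 libraries fall into 2 groups, so r mostly reflects the step between them and is a description. For AIM2 they were OPTN (r = 0.9994), an autophagy receptor, NCF1 (r = 0.999), an NADPH oxidase subunit with near-identical copies and so uncertain, and TRIM21 (r = 0.9989), a cytosolic antibody receptor. For NLRP3 they were XPR1 (r = 0.9967), a phosphate exporter, CDV3 (r = 0.9957) and RASGEF1B (r = 0.9944). For CASP1 they were P2RX4 (r = 0.9979), an ATP-gated channel, IGF2R (r = 0.9954) and OSBPL11 (r = 0.994). P2RX4, IGF2R and OSBPL11 were not called (limma adjusted p = 0.06012, 0.1365 and 0.0858), nor were XPR1 and RASGEF1B (0.1042 and 0.06488).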

How the data were processed

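Stranded poly(A) RNA libraries were made from total RNA, per the labels' protocols. The deposited file is 1 TPM matrix by gene, to 2 decimals. Per the submitters' processing notes fastp, HISAT2, StringTie and GRCh38 were used, without versions. The annotation release is not given in the sources used here. TPM show shares of the transcript pool, so a change in abundant transcripts shifts others. Of 63262 rows, 21 without a gene ID were left out.

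Groups came from sample titles. The fit was limma 3.58.1, run in R 4.3.3 on log2(TPM + 1), over all genes that average 1 TPM or more. Group was the only term, with a variance trend, two-sided tests and Benjamini-Hochberg adjustment over all 14602 genes. Fold changes on this scale understate those of low genes. On simulated data for this comparison, over 14602 genes, the fit recovered 26% of 50 genes changed 1.25-fold and 62% of 50 changed 1.5-fold, and 6 of 96 calls were false.

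Members and lists were chosen with earlier results of these data known. Named were all members, DUSP6, every called gene of a list or, with none called, the 2 with the smallest p, and the 3 genes most like each called member. MEFV, MNDA, PYHIN1, CASP8, GSDME, GBP2, GBP3, GBP4 and listed genes at 0 were named after their values were seen. Coordinates and 31-base words came from GENCODE release 29, matched by gene ID, with Python 3.11.15. No protein sequences were used here. Replicate numbers were not used to pair the libraries in the reported fit. Alternatives were other pseudocounts, filters and scalings, no variance trend, a replicate block and left-out libraries. A gene of the list of other caspases is not reported here.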

Additional observations from a re-analysis of the deposited data

How the results depend on the processing

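Of 564 genes called over the whole table, 3 members and 12 genes of the pathway lists, the counts were 360, 1 and 7 with no filter, 124, 1 and 5 without the variance trend, and 49, 0 and 1 with siDUSP6 replicate 1 as the only knockdown library. With 1 library left out they ranged from 222 to 266, from 1 to 2 and from 4 to 7. The replicate number as a block gave 121, 1 and 4, with AIM2 the member called. Deviations of same-numbered libraries correlated at 0.0252, -0.0365 and 0.048, so no pairing by number was seen. All genes weigh alike in these values, so a weak pairing could be missed. Higher genes made up 61.3% of calls, and 73.2% after median-of-ratios scaling. DUSP6 stayed called under all alternatives.

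The change of PYCARD, -0.0140 as reported, was 0.00845 after median-of-ratios scaling and 0.00933 after quantile normalization, and ran from -0.118 to 0.05165 with 1 library left out. That of GSDMD ran from -0.0401 to 0.06205 in those fits. Neither was called in any setting. The causes were not tested. Depth is unknown, so NLRP1, CASP5 and NLRC4 have no counting interval.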

Other observations

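IRF1, an interferon-induced transcription factor in the list with the guanylate-binding proteins, stood at 141 TPM in siDUSP6 replicate 2, and at 28.2 to 35.1 TPM in the other 5 libraries (limma adjusted p = 0.4603). In siDUSP6 replicates 1, 2 and 3 AIM2 was at 45.4, 44.4 and 45.7 TPM and GBP1 at 70.4, 72.7 and 72.3 TPM. NLRP3 was at 42.9, 43.6 and 39.8 TPM there, and GBP4, which was not called, at 20.7, 30.9 and 29.5 TPM. The part of IRF1 in these levels was not tested. IRF8, a myeloid transcription factor of the same list, was at 6.18 to 7.56 TPM in siNC and 4.69 to 4.94 TPM in siDUSP6, with separate groups, and missed the threshold (limma adjusted p = 0.05733). Both genes were chosen after their values were seen.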
